A study of Mus musculus with 6 samples.

Results

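The Nodal, BMP and TGF-beta pathway was followed through 45 genes in MNs derived from mouse embryonic stem cells (mESCs), from its ligands and antagonists to its receptors, its Smads and the Id genes that BMP signaling switches on. The genes were chosen by name and matched to the gene symbols of the expression table, with the entry of the highest FPKM (fragments per kilobase of transcript, normalized to the depth of mapped reads) taken for each symbol. All 45 were found, each in a single entry that names no other gene, among 41945 entries of which 37261 have a symbol. Hb9 control MNs came from the mESC line Hb9, labelled as wildtype on an FVB/N background, and A2 SMA MNs from the mESC line A2, labelled FVB/N with the genotype SMN2+/+;mSmn-/-. Per the study's methods both lines carry the human SMN2 transgene and express eGFP from the Hb9 promoter, both grew on mouse embryonic fibroblast feeders, and the medium in which embryoid bodies formed held noggin, itself a BMP antagonist. Embryoid bodies of both lines received 1 µM retinoic acid and 1 µM Smoothened agonist for 5 days, and GFP-positive cells were collected by FACS. RNA was sequenced from 3 samples per genotype, to ask how loss of mouse Smn, as in spinal muscular atrophy (SMA), changes the transcripts of MNs.

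The table gives 1 pooled FPKM value per gene and genotype. These values therefore show no spread between samples, and no difference was checked here against replicates. The authors' own test results were not used, so no p-value is given. The number of reads behind each value is not given in the table. Each genotype is a single mESC line, so genotype and line cannot be told apart. Changes are given as the log2 ratio of the FPKM in A2 SMA MNs over that in Hb9 control MNs, with no pseudocount, and a gene is said to have risen or fallen when its level differed at least 2-fold.

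In this pathway, ligands of the TGF-beta family bind pairs of serine/threonine kinase receptors, which phosphorylate receptor Smads that enter the nucleus with the common Smad4. Nodal, activins and TGF-betas act through Smad2 and Smad3, and BMPs act through Smad1, Smad5 and Smad9. Nodal signaling switches on Nodal itself and its antagonists Lefty1 and Lefty2, and is active in mESCs and the early embryo. BMPs pattern the dorsal spinal cord, opposite to the ventral side where Sonic hedgehog specifies MNs, and the Id proteins that they induce hold back neuronal differentiation by binding bHLH transcription factors.

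The labels were checked first on the deleted gene. Smn1 had 137 FPKM in Hb9 control MNs against 5.26 FPKM in A2 SMA MNs (log2 ratio -4.70). Mnx1, which encodes Hb9 and whose promoter drives the reporter, had 41.2 FPKM and 44.2 FPKM, a log2 ratio of 0.10. The sorted cells of both genotypes thus held Mnx1 transcripts at similar levels. Among other MN markers Foxp1, in an entry shared with Eif4e3, had 47.1 and 34.9 FPKM, a log2 ratio of -0.43. Isl1 fell from 108 to 5.95 FPKM, while Lhx3 fell from 27.6 to 0.348 FPKM and Chat, which makes acetylcholine, from 15.5 to 0.344 FPKM. Levels of Lhx3 and Chat in A2 SMA MNs were thus under 1 FPKM, so that both passed the filter given below through Hb9 control MNs alone.

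A filter kept the 14926 entries that have a symbol, reach 1 FPKM in a genotype or both, and are listed above 0 FPKM in each. Their median log2 ratio was -0.29, and 65.9% of them were lower in A2 SMA MNs. Of the 45 pathway genes 40 passed this filter. Inhba, Cfc1, Bmp5, Grem1 and Smad9 were under 1 FPKM in both genotypes, and their highest value was the 0.301 FPKM of Smad9 in A2 SMA MNs. Bmpr1b and Tgfbr2 passed through their level in Hb9 control MNs alone, and no gene of the pathway passed through A2 SMA MNs alone. A gene that passes through 1 genotype alone is by that choice lower in the other, and where such a gene was counted as a rise or a fall this is said.

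Nodal, its co-receptor, its Lefty antagonists and the inhibitory Smads rose in A2 SMA MNs, and genes of other parts of the pathway fell. A log2 ratio below 0 was found for 30 of the 40 genes, against 65.9% of all genes, and one below that of the median gene for 26. At least 2-fold higher were 8 of the 40 genes (20%), against 6.83% of all genes above the filter. They were Nodal, Gdf3, Inhbb, Tdgf1, Lefty1, Lefty2, Smad6 and Smad7. At least 2-fold lower were 14 of the 40 (35%), against 22.4% of all genes. These were Gdf11, Nog, Tgfb2, Tgfb3, Bmp1, Acvr2a, Acvr1, Bmpr1b, Tgfbr1, Smad1 and the 4 Id genes. Bmpr1b passed the filter through Hb9 control MNs alone, so that its lower value in A2 SMA MNs is built into its choice. The median log2 ratio of the 40 genes was -0.76.

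Relative to the median gene, which shifts each log2 ratio up by 0.29, the same 8 genes were at least 2-fold higher, against 10.4% of all genes, and 10 were at least 2-fold lower, against 16.5% of all genes. The 4 that no longer reached 2-fold were Smad1, Acvr1, Acvr2a and Id2. The median of the 40 genes was then -0.47. Genes nearest to the limit were Smad1 at -1.02 and Acvr1 at -1.07 on the inside, and Bmp2 at -0.98, Acvr2b at -0.97 and Bmpr2 at -0.94 on the outside, so the count of lower genes rests in part on where the limit was placed.

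**Figure D1:**
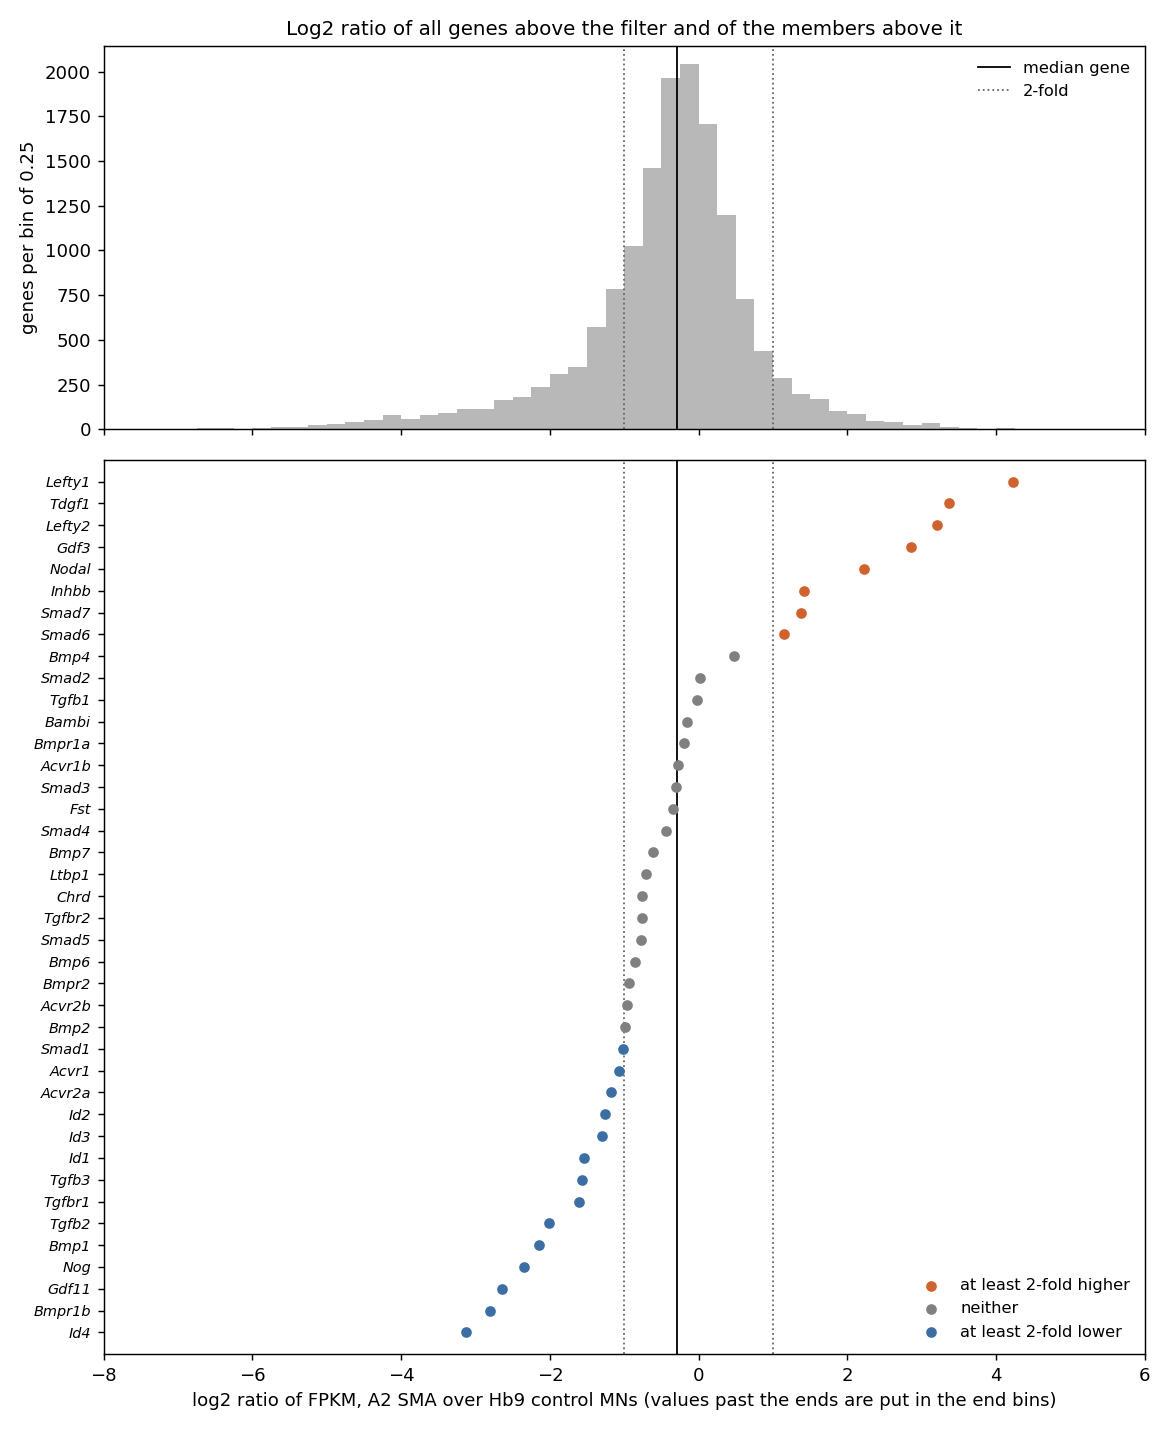
Upper panel, number of genes in each bin of the log2 ratio of FPKM (A2 SMA over Hb9 control MNs) for 14926 genes above the filter; lower panel, the 40 pathway genes above it in order of their log2 ratio, with the median gene (-0.29) as a solid line and 2-fold limits as dotted lines. Lefty1, Tdgf1, Lefty2, Gdf3 and Nodal lie far out in the thin upper tail of all genes, and 14 genes, Id4 the lowest, lie at or below the lower 2-fold limit.

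Among the ligands of the Nodal and activin branch, 3 rose and 1 fell. Nodal, the ligand that maintains the early epiblast and induces mesendoderm, had 5.39 FPKM in Hb9 control MNs against 25.1 FPKM in A2 SMA MNs, a 4.65-fold rise with a log2 ratio of 2.22. Only 191 of the 14926 genes had a higher ratio. Its entry lies at chr10:60880720-60888086 of the mouse build NCBI m37. Gdf3, a Nodal-related ligand of pluripotent cells, rose 7.23-fold from 9.74 to 70.4 FPKM, a log2 ratio of 2.85. The entry of Gdf3 is listed at chr6:122555421-122583593, the same interval as that of Dppa3, itself a marker of pluripotent cells with at most 13.7 FPKM. Reads of this interval may thus have been counted for either gene. Inhbb, the beta B subunit of activins and inhibins, rose from 1.54 to 4.09 FPKM (log2 ratio 1.41).

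Gdf11, a ligand that acts through activin receptors and helps set positional identity along the spinal cord, went the other way. Its level fell 6.27-fold, with 22.2 FPKM in Hb9 control MNs against 3.53 FPKM in A2 SMA MNs (log2 ratio -2.65). It was thus the most abundant ligand of this class in Hb9 control MNs and less abundant than Nodal, Gdf3 and Inhbb in A2 SMA MNs. The summed level of the 5 ligands was 39.1 FPKM in Hb9 control MNs against 103 FPKM in A2 SMA MNs, of which Gdf3 made up 24.9% and 68.3%.

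Tdgf1 encodes Cripto, the membrane-anchored co-receptor that Nodal needs to signal through activin receptors. It rose 10.4-fold, from 10.2 to 105 FPKM, a log2 ratio of 3.37 that only 42 genes exceeded, and was the most abundant of the 45 genes in A2 SMA MNs. Its entry carries the status FAIL, by which the authors' software marks entries whose comparison it could not compute, although both FPKM values are listed. Of the stretches of 50 bases, the read length, in its transcript, 12.5% also occur in the pseudogene Tdgf1-ps1, so part of its reads may have been placed there or come from there. Cfc1, the related co-receptor Cryptic, had 0.200 and 0.240 FPKM.

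Lefty1 and Lefty2, secreted antagonists that block the Nodal receptor complex, had the largest and the 3rd largest log2 ratios of the 40 genes. Lefty1 rose 18.7-fold, with 2.22 FPKM in Hb9 control MNs against 41.6 FPKM in A2 SMA MNs (log2 ratio 4.23). Only 16 of all genes had a higher ratio. Lefty2 rose 9.20-fold, from 1.01 to 9.31 FPKM, a log2 ratio of 3.20 that was 2.36, below the 2.73 of Gdf3, when 1 FPKM was added to both values. The Lefty genes lie next to each other on chromosome 1, Lefty2 at 182823239 to 182829234 and Lefty1 at 182865049 to 182868531, with 35814 bp between them. Of the 50-base stretches of the Lefty1 transcript 17.9% also occur in Lefty2, so the split of reads between them is uncertain, although most of each transcript tells them apart. Fst, which binds and neutralizes activins, stood apart from the Lefty genes with 11.1 and 8.76 FPKM, a log2 ratio of -0.35.

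In Hb9 control MNs the level of Lefty1 was 2.19 times that of Lefty2, and in A2 SMA MNs 4.47 times. The summed level of Lefty1 and Lefty2 was 0.214 times that of Nodal and Gdf3 in Hb9 control MNs and 0.533 times in A2 SMA MNs. Fst was the most abundant of these antagonists in Hb9 control MNs, and Lefty1 made up 15.5% of the class sum there and 69.7% in A2 SMA MNs.

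None of the 4 BMP ligands above the filter reached 2-fold. Bmp7, the most abundant, had 26.9 FPKM in Hb9 control MNs against 17.6 FPKM in A2 SMA MNs (log2 ratio -0.61). Bmp4, which supports mESC self-renewal and in the embryo dorsalizes the neural tube, had 4.82 and 6.71 FPKM, a log2 ratio of 0.48, and was the single BMP ligand above the filter that was higher in A2 SMA MNs. Bmp6 had a log2 ratio of -0.85, with 3.27 and 1.81 FPKM, and Bmp2 of -0.98, with 2.25 and 1.14 FPKM. The entry of Bmp6 overlaps that of Txndc5, which had up to 110 FPKM, which makes the low Bmp6 value less certain. The 5 ligands summed to 37.5 FPKM in Hb9 control MNs against 27.4 FPKM in A2 SMA MNs.

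Of the BMP antagonists, Nog fell. It encodes noggin, which binds BMPs outside the cell and in the embryo is made by the notochord and the neural tube, and it had 6.10 FPKM in Hb9 control MNs against 1.20 FPKM in A2 SMA MNs, a 5.07-fold difference with a log2 ratio of -2.34 that was -1.69 when 1 FPKM was added to both values. Noggin was also added to the early medium of both lines as a protein, which these values do not measure. Chrd, the chordin gene, had 4.13 and 2.44 FPKM (log2 ratio -0.76), and Bambi, a receptor without kinase activity that dampens signaling, had 2.05 and 1.83 FPKM (log2 ratio -0.16, and above 0 relative to the median gene). Grem1 had 0.171 and 0.158 FPKM. The sum of the class was 12.5 and 5.63 FPKM.

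TGF-beta ligands separated by gene. Tgfb2 fell 4.04-fold from 6.28 to 1.56 FPKM and Tgfb3 fell 2.97-fold from 3.17 to 1.07 FPKM, whereas Tgfb1 had 3.87 FPKM in Hb9 control MNs against 3.83 FPKM in A2 SMA MNs (log2 ratio -0.01, and above 0 relative to the median gene). The ligands Tgfb2 and Tgfb3 were thus the ones with lower levels, and Tgfb1 was the most abundant of the 3 ligands in A2 SMA MNs only. The entry of Tgfb3 overlaps that of Ttll5, which reached 16.7 FPKM. Ltbp1, which holds latent TGF-beta in the matrix, had 10.9 and 6.63 FPKM, a log2 ratio of -0.71. Bmp1, which despite its name is a metalloprotease that cleaves procollagens and chordin, fell 4.41-fold from 46.6 to 10.6 FPKM and has the status FAIL.

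All 9 receptor genes were lower in A2 SMA MNs, but relative to the median gene 7 were lower, and Acvr1b and Bmpr1a were on its upper side. Bmpr1b, a type I BMP receptor that passed the filter through Hb9 control MNs alone, fell 7.02-fold from 3.45 to 0.492 FPKM. Its log2 ratio was -2.81, and -1.58 when 1 FPKM was added to both values. The other type I BMP receptor of that pair, Bmpr1a, had 56.4 and 49.3 FPKM, a log2 ratio of -0.20, and made up 58.9% of the summed BMP receptor level in Hb9 control MNs and 72.8% in A2 SMA MNs. Acvr1, a type I receptor for BMPs, had a log2 ratio of -1.07 (18.0 and 8.53 FPKM), under 2-fold relative to the median gene, and the type II receptor Bmpr2 had one of -0.94 (18.0 and 9.35 FPKM).

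Among activin and Nodal receptors the type I receptor Acvr1b had 30.5 and 25.3 FPKM, a log2 ratio of -0.27, and has the status FAIL. The type II receptors Acvr2a and Acvr2b had log2 ratios of -1.17 (22.6 and 10.0 FPKM) and -0.97 (42.4 and 21.7 FPKM), of which that of Acvr2a was under 2-fold relative to the median gene. The Acvr2a entry overlaps 4 other entries, Orc4 among them, and shares 7.04% of its 50-base stretches with Orc4, which makes its level less certain. Tgfbr1, the type I TGF-beta receptor, fell 3.06-fold from 56.7 to 18.5 FPKM (status FAIL). Tgfbr2, the type II receptor without which TGF-beta does not signal, was low in both genotypes, with 1.64 and 0.962 FPKM. Acvr1b, Acvr2a and Acvr2b thus stayed well above 1 FPKM in both genotypes, while Tgfbr2 did not.

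**Figure D2:**
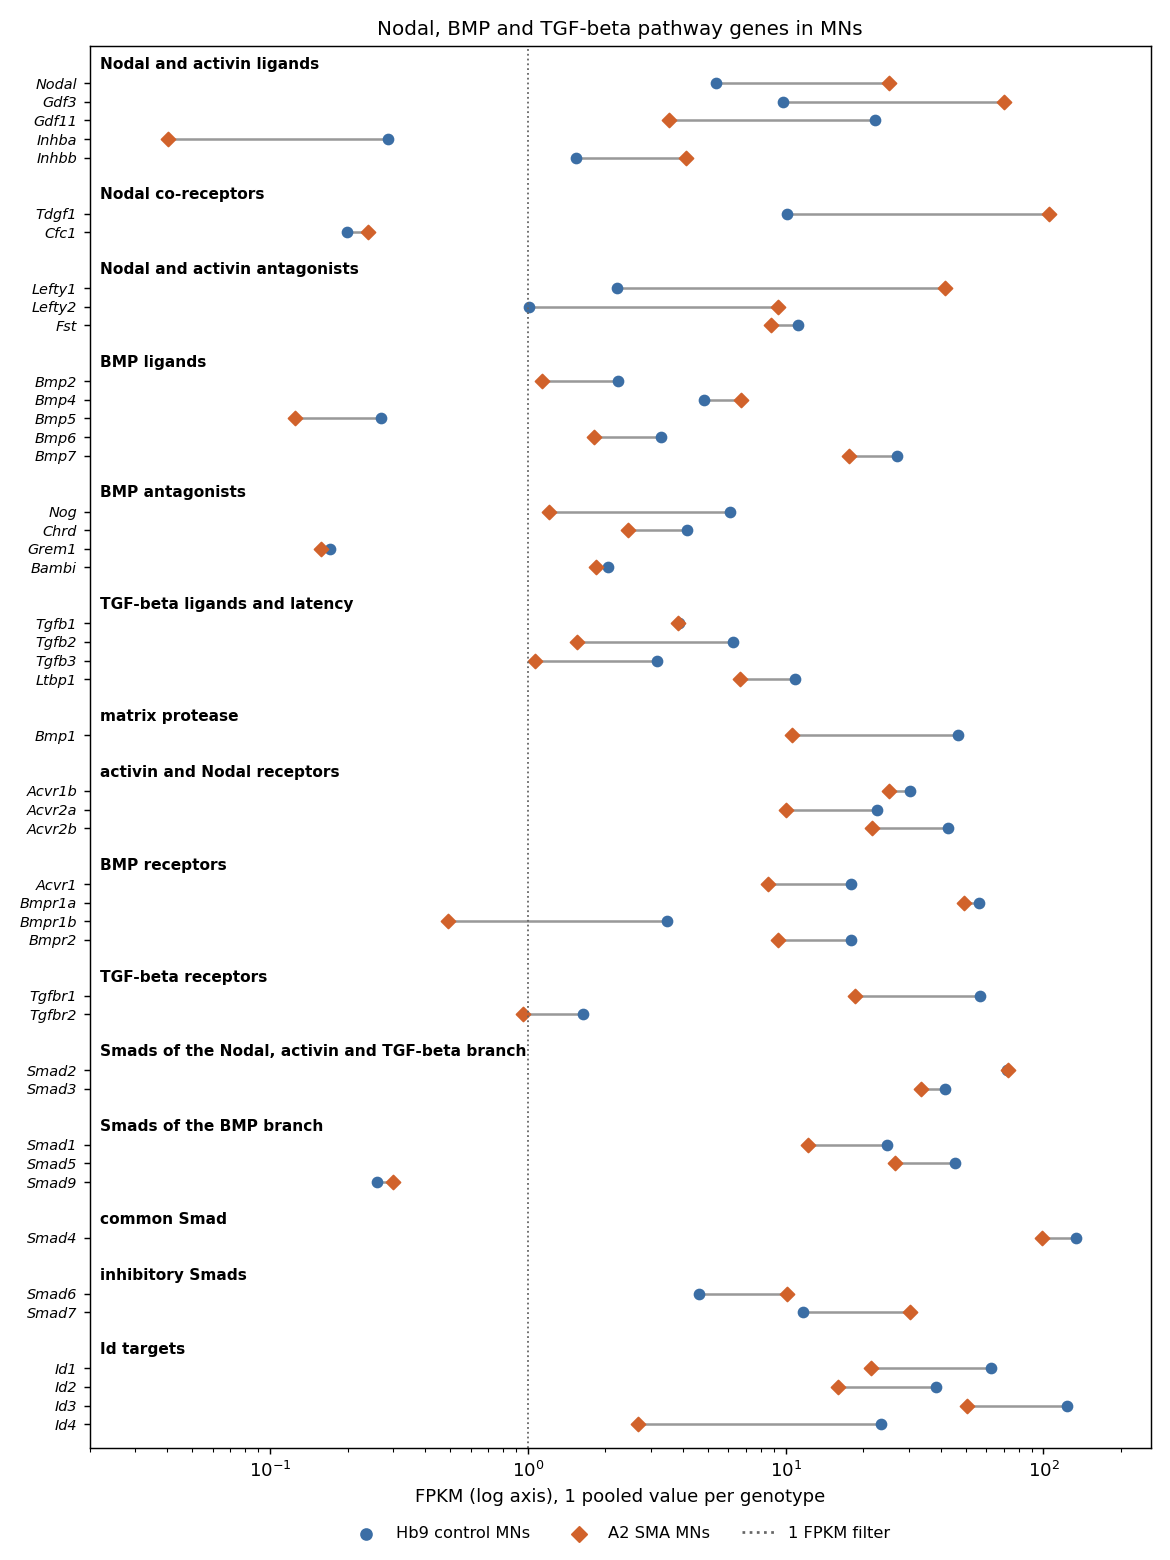
FPKM of each of the 45 pathway genes in Hb9 control MNs (circles) and A2 SMA MNs (diamonds) on a log axis, grouped by class, 1 pooled value per genotype, with the 1 FPKM filter as a dotted line. Nodal, Gdf3, Tdgf1 and the Lefty genes lie to the right in A2 SMA MNs (up to 105 FPKM for Tdgf1), the 4 Id genes lie to the left, and Smad2 has nearly the same level in both.

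Among the Smads that carry the signal none rose, and Smad1 alone reached 2-fold. Smad2 had 72.0 FPKM in Hb9 control MNs against 73.1 FPKM in A2 SMA MNs, and Smad3 had 41.3 and 33.5 FPKM. Their log2 ratios were 0.02 and -0.30. Those of the BMP branch were lower, with Smad1 at 24.7 and 12.2 FPKM (log2 ratio -1.02, under 2-fold relative to the median gene) and Smad5 at 45.6 and 26.5 FPKM (-0.78, status FAIL), and Smad9 was under 1 FPKM in both. The summed level of Smad2 and Smad3 was 1.61 times that of Smad1, Smad5 and Smad9 in Hb9 control MNs and 2.73 times in A2 SMA MNs. The sum of Smad2 and Smad3 was 113 and 107 FPKM, and that of the BMP branch, mostly Smad5, 70.5 and 39.1 FPKM. These are transcript levels, and the activity of the branches was not measured. Smad4, the common partner, was the most abundant of the 45 genes in Hb9 control MNs, at 133 FPKM, and had 98.7 FPKM in A2 SMA MNs.

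Both inhibitory Smads rose. Smad7, which blocks all branches and is itself a target of TGF-beta signaling, rose 2.59-fold from 11.7 to 30.3 FPKM, a log2 ratio of 1.38. Smad6, which mainly blocks the BMP branch and is induced by it, rose 2.21-fold from 4.59 to 10.2 FPKM, a log2 ratio of 1.14 that came just under 2-fold when 1 FPKM was added to both values. Together they had 0.0885 times the summed level of the 5 receptor Smads in Hb9 control MNs and 0.278 times in A2 SMA MNs.

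Each of the 4 Id genes fell, by log2 ratios from -1.27 to -3.13. Id3, the most abundant, had 124 FPKM in Hb9 control MNs against 50.5 FPKM in A2 SMA MNs (log2 ratio -1.29). Id1 fell from 62.6 to 21.5 FPKM and Id2 from 38.4 to 16.0 FPKM, with log2 ratios of -1.54 and -1.27, that of Id2 being under 2-fold relative to the median gene. Id4, which is found in neural progenitors and astrocytes, fell 8.75-fold from 23.4 to 2.68 FPKM, the lowest log2 ratio of the 40 genes. The Id4 entry (chr13:48139600-48361365) spans 221766 bp as the authors assembled it. Summed over the class, the level was 248 FPKM in Hb9 control MNs against 90.6 FPKM in A2 SMA MNs, a 2.74-fold difference. The direction of the Id genes was thus opposite to that of Smad6, another gene that BMP signaling is known to induce.

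Other genes of the pathway were taken from a list of 84, of which 61 passed the filter. Of these 8 were at least 2-fold higher in A2 SMA MNs (13.1%) and 20 at least 2-fold lower (32.8%), against 6.83% and 22.4% of all genes, with a median log2 ratio of -0.52. Relative to the median gene 9 were higher and 17 lower, against 10.4% and 16.5% of all genes. Regulators of the Smads included 2 rises (8.33%) and 3 falls (12.5%) among 24 genes, against the 6.83% and 22.4% of all genes, and 3 of each relative to the median gene. Foxh1, the transcription factor that brings Smad2 and Smad3 to Nodal targets, rose from 12.2 to 35.3 FPKM (log2 ratio 1.53), and Tgif1, a corepressor of Smads, rose from 61.2 to 147 FPKM (log2 ratio 1.27, status FAIL). Zeb2, a Smad-binding repressor active in neural development, fell from 44.1 to 5.31 FPKM, and Hipk2, a kinase, from 63.4 to 9.84 FPKM. The 3rd fall was that of Zeb1, named after its values were seen, at a log2 ratio of -1.78.

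Of 14 other extracellular antagonists and modulators above the filter 6 fell (42.9%, 5 relative to the median gene) and 1 rose (7.14%). Shares of all genes above the filter were 22.4% and 6.83%. In this class 3 of the falls were in genes that passed through Hb9 control MNs alone. Crim1 fell from 20.6 to 7.34 FPKM and Fstl1, a follistatin-like protein, from 206 to 79.3 FPKM. Fstl3, which binds activins, rose from 3.31 to 8.14 FPKM, and Tmeff1, which can bind Cripto, had 250 and 127 FPKM, a log2 ratio of -0.98 (status FAIL). The BMP co-receptors Rgma and Rgmb, which also guide axons, fell from 215 to 18.1 FPKM (status FAIL) and from 60.2 to 12.5 FPKM. Eng, which shares its entry with Ak1, had 44.0 and 63.7 FPKM. Of 7 other receptors and co-receptors above the filter 3 fell (42.9%, 2 relative to the median gene) and 2 rose (28.6%). The remaining falls and rises were those of Tgfbr3 (log2 ratio -1.23), Acvrl1 (1.21) and Amhr2 (1.10), named after their values were seen. Acvrl1 passed through A2 SMA MNs alone.

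Among 11 latency and activation genes above the filter 5 fell (45.5%, 4 relative to the median gene) and 1 rose (9.09%). Shares of all genes above the filter were 22.4% and 6.83%. Itgb8, an integrin subunit that releases TGF-beta from its latent form, fell from 23.7 to 0.801 FPKM (log2 ratio -4.89), and it and Pcsk5 passed the filter through Hb9 control MNs alone. Ltbp3 fell from 43.1 to 10.5 FPKM. The remaining falls were those of Fbn1, Thbs1 and Pcsk5, named after their values were seen. Ltbp4 went the other way, from 15.5 to 44.4 FPKM. Pcsk6, a protease that can process Nodal, had 15.2 and 21.7 FPKM, a log2 ratio of 0.52. Only 5 of 18 other ligands passed the filter. Gdf15 rose from 1.54 to 5.72 FPKM, and Inha and Gdf1 (in an entry shared with Lass1) fell, by log2 ratios of -1.51 and -1.48. The other 2, Bmp8b (1.02, status FAIL) and Gdf9 (-1.53), were named after their values were seen, and Bmp8b passed through A2 SMA MNs alone.

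Of 33 known target genes of the branches 25 passed the filter, 3 rose (12%) and 11 fell (44%), against 6.83% and 22.4% of all genes. Relative to the median gene 4 were higher and 9 lower, against 10.4% and 16.5% of all genes. Among Nodal and activin targets, Lhx1, which is also a neuronal gene, fell from 21.2 to 0.696 FPKM (passing the filter through Hb9 control MNs alone) and Foxa2, which also marks endoderm and the floor plate, from 55.9 to 18.2 FPKM. Sox17, another endoderm gene, had a log2 ratio of -1.11, under 2-fold relative to the median gene. Otx2 had 19.0 and 25.8 FPKM (log2 ratio 0.44, status FAIL). The 1 rise was that of Eomes, an activator of mesendoderm, from 1.35 to 4.44 FPKM.

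BMP targets fell in 6 of 8 genes above the filter (75%, against 22.4% of all genes). The median log2 ratio of the 8 genes was -1.62 (-1.33 relative to the median gene). Of the 6, Msx1, Atoh8, Runx2 and Tbx2 passed the filter through their level in Hb9 control MNs alone, so that a lower value in A2 SMA MNs is built into their choice. Atoh8, Runx2 and Tbx2 were named after their values were seen. Gata2, at 20.7 FPKM in Hb9 control MNs, fell by a log2 ratio of -2.37, and Gata3, in an entry shared with 9230102O04Rik, fell from 15.8 to 4.86 FPKM. These GATA factors are also used in spinal interneurons. Hand1 had 14.7 and 26.7 FPKM, a log2 ratio of 0.86 (status FAIL), and was 2-fold higher relative to the median gene. The 1 rise was that of Msx2, named after its values were seen, from 0.521 to 1.18 FPKM, which passed through A2 SMA MNs alone. TGF-beta targets had 2 falls (18.2%) and 1 rise (9.09%) in 11 genes, near the 22.4% and 6.83% of all genes. Ctgf fell from 84.4 to 33.1 FPKM, and Col1a1, from 18.9 to 9.41 FPKM (status FAIL), was under 2-fold relative to the median gene. Cdkn1a had 91.7 and 54.0 FPKM, a log2 ratio of -0.76.

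Markers of cell types moved between the genotypes as well, and in sorted cells measured in bulk, fewer cells of a type and less RNA per cell cannot be told apart. All 10 pluripotency markers rose, and their summed level was 284 FPKM in Hb9 control MNs against 1791 FPKM in A2 SMA MNs, a 6.31-fold difference. Pou5f1 was the most abundant, at 98.3 and 775 FPKM, and Nanog rose from 41.4 to 236 FPKM. The markers rose between 2.24-fold (Dppa5a) and 11.3-fold (Tdh). Of the 8 pathway genes that rose, 6 had a fold within this range, Smad6 was below it and Lefty1 above it. The part of the pluripotency markers in the rises of Nodal, Gdf3, Tdgf1, Lefty1 and Lefty2 was not tested.

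Neuronal markers were lower. All 9 pan-neuronal genes above the filter fell, from a sum of 1258 to 133 FPKM, with Nefm the most abundant in Hb9 control MNs (359 and 15.2 FPKM). Of 8 MN markers above the filter 6 fell (5 relative to the median gene), from a sum of 289 to 98.8 FPKM over 9 genes, with Isl1 the most abundant in Hb9 control MNs. Of 6 MN progenitor markers 5 fell, from 281 to 32.7 FPKM, with Nkx6-1 the most abundant in Hb9 control MNs (158 and 7.46 FPKM) and Pax6 the exception at 22.4 and 21.4 FPKM. Of these falls, those of Lhx3, Lhx4 and Chat, of Olig2, Olig1 and Neurog2, and of Rbfox3 and Syt1 were in genes that passed the filter through Hb9 control MNs alone. Lhx4, Rbfox3 and Syt1 were named after their values were seen. Slc18a3, Sox1, Tubb3 and Map2 were not analysed here. The 14 pathway genes that fell did so by 2.02-fold to 8.75-fold, and the pan-neuronal genes by 3.10-fold to 23.6-fold, so 8 of the 14 fell by less than any pan-neuronal gene. That count rests on Stmn2 (3.10-fold, status FAIL), since the next lowest pan-neuronal fold was the 7.60 of Snap25. The part of the neuronal markers in the falls of the pathway genes was not tested.

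Markers of other cell types were also read. Of 7 astrocyte and oligodendrocyte markers above the filter 5 fell (4 relative to the median gene), among them Aldh1l1, Slc1a3, Sox10 and Cnp, from a sum of 114 to 39.7 FPKM over 9 genes, with Slc1a3 the most abundant in Hb9 control MNs (32.2 and 6.86 FPKM). Fibroblast markers, read because of the feeder layer, summed to 70.1 FPKM in Hb9 control MNs against 36.2 FPKM in A2 SMA MNs, with Col1a2 the most abundant in Hb9 control MNs (20.1 and 8.93 FPKM), and 5 of 8 fell (Col1a1, Col1a2, Col3a1, Postn and Lum), of which Postn and Lum reached 2-fold relative to the median gene, while Thy1 rose from 0.970 to 2.20 FPKM. Per the study's methods, feeder fibroblasts were left to re-attach while floating mESCs were taken on, and the later sort kept GFP-positive cells. Primitive streak and mesoderm markers summed to 36.4 and 44.1 FPKM, with Gata4 the most abundant in Hb9 control MNs and Hand1 in A2 SMA MNs. Of 5 above the filter 2 fell (Tbx6 and Kdr, 40%) and 1 rose (Eomes, 20%), against 22.4% and 6.83% of all genes. Endoderm markers summed to 82.4 and 46.5 FPKM with Foxa2 the most abundant. Of 7 above the filter 2 fell (Foxa2 and Sox17, 28.6%) and 1 rose (Amn, 14.3%). Roof plate and dorsal neural tube markers, the region where BMPs act in the spinal cord, were low, with a sum of 6.10 and 3.43 FPKM, Wnt1 the most abundant at 2.38 and 0.978 FPKM, and 3 of 9 above the filter. These 3 (Wnt1, Zic1 and Msx1) passed through their level in Hb9 control MNs alone, so that a lower value in A2 SMA MNs is built into their choice. The same holds for Sox10, Postn, Lum, Tbx6 and Kdr, and Thy1 passed through A2 SMA MNs alone. Aldh1l1, Postn, Lum, Thy1, Tbx6 and Kdr were named after their values were seen. No marker of these lists was listed at 0 FPKM in either genotype. Their part in the results on the pathway was not tested.

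**Figure D3:**
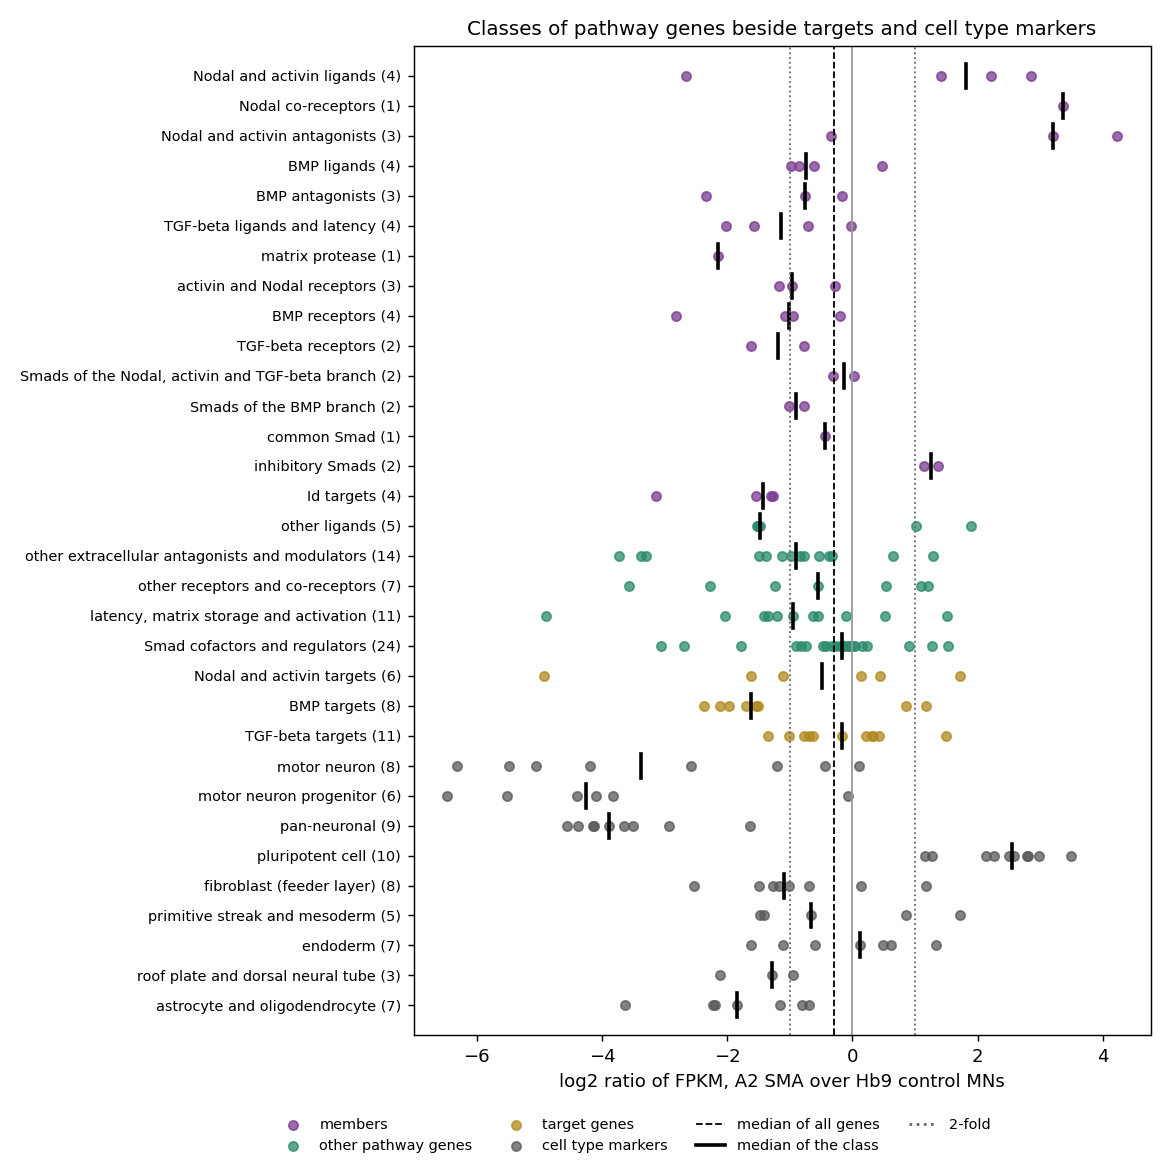
Log2 ratio of FPKM (A2 SMA over Hb9 control MNs) of every gene above the filter, by class of pathway genes, other pathway genes, target genes and cell type markers, with the number of genes in brackets, the class median as a bar, the median of all genes (-0.29) as a dashed line and 2-fold limits as dotted lines. Nodal co-receptors, Nodal and activin antagonists, Nodal and activin ligands and inhibitory Smads have medians above 1 together with the pluripotency markers, and the Id genes have a median of -1.42.

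Promoters were read because Nodal pathway genes rose together and Id genes fell together. Windows of 250 bases before the start of the gene came from RefSeq (build GRCm38.p6) and were found for 31 of the 45 genes. Those missing were Smad2, Smad4, Bmp7, Smad7, Fst, Tgfb3, Bmp2, Nog, Lefty1, Bambi, Lefty2, Bmp1, Gdf3 and Id1. Motifs searched on both strands were the FOXH1 core TGTNNATT, the Smad box GTCT, the Smad binding element CAGAC, which contains a Smad box on the opposite strand, and the GC box GGCGCC known from BMP-responsive genes. They occur in 10.9%, 82.9%, 42.2% and 9.59% of all 32851 windows. By the rule for choosing windows, applied to genes that had one, 6 were examined (Tdgf1, Id4, Gdf11, Nodal, Inhbb and Id3), and the windows of Gdf11 and Nodal held none of the 4 motifs. The other 4 are shown 5′ to 3′ on the strand of the gene, with every motif in capitals: Tdgf1 at chr9:110946159-110946408 (minus strand), Inhbb at chr1:119422249-119422498 (minus strand), Id3 at chr4:136143572-136143821 (plus strand) and Id4 at chr13:48260866-48261115 (plus strand).
Tdgf1: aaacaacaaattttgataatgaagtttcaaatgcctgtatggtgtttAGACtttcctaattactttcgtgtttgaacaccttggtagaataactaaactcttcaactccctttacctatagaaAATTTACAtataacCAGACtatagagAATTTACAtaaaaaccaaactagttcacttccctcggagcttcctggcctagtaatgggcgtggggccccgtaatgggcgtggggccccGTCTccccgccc
Inhbb: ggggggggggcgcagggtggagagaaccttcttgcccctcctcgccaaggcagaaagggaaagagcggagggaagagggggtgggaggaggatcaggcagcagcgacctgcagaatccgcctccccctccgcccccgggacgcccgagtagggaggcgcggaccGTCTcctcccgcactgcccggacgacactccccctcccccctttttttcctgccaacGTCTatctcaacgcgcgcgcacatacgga
Id3: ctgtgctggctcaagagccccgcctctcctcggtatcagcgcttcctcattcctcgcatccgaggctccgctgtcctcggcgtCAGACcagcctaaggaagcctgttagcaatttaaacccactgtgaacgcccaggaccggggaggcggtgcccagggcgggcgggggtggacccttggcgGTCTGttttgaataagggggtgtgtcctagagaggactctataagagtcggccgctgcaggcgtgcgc
Id4: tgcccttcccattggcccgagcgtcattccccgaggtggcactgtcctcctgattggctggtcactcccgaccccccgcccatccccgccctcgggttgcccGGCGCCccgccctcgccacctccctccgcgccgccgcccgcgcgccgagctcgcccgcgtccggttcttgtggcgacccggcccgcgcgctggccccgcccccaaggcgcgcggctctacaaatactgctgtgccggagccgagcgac
The Tdgf1 window holds 2 matches to the FOXH1 core, both as its reverse complement AATNNACA, and 3 Smad boxes, 1 of them within a Smad binding element. No other gene of the pathway with a window had a FOXH1 core in it. Inhbb has 2 Smad boxes, Id3 has 2 Smad binding elements and Id4 has 1 GC box. With 1 window per gene, the first listed, a GC box was found in 3 of 10 genes that fell, in none of 4 that rose and in 3 of 12 that did neither. In the same order, a Smad box was found in 6 of 10, 3 of 4 and 10 of 12 genes. A Smad binding element was found in 4 of 10, 1 of 4 and 4 of 12. The median share of G and C in these windows was 69.2%, 60% and 69.0%, against 52.4% over all windows, and the letters of the GC box are all G or C.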

How the data were processed

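RNA-Seq of FACS-collected Hb9 control and A2 SMA MNs was analysed from the gene-level table that the authors deposited. Per the submitters' processing notes and the study's methods, the authors checked reads with FastQC 0.10.1, trimmed them with CutAdapt, mapped them with TopHat2 (2.04) to NCBI m37 with Ensembl annotation, assembled transcripts with Cufflinks and compared genotypes with Cuffdiff. The deposited FPKM values are normalized for length and mapped reads by the authors and combine the 3 samples of a genotype into 1 value. Single samples were not analysed here, so depth per sample and its precision are not given. The table also holds the authors' log2 fold change, test statistic, p, q and a significance mark, none of which was used. Whether counting used strand is not given in the sources used here.

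Log2 ratios, counts past 2-fold, medians and class sums were computed with Python 3.11.15, numpy 2.4.6 and pandas 2.3.3, and figures with matplotlib 3.10.9. An entry was counted once, if it reached 1 FPKM in a genotype or both and was listed above 0 FPKM in each. The calculation was tested on simulated data. Starts of entries were counted from 0 in the table, as lengths of RefSeq genes showed (3284 of 24093 spans were equal to the RefSeq length as end minus start, and 276 with 1 base added), and 1 was added. Shared stretches of 50 bases were sought on both strands between the longest coding transcript of each gene and all other transcripts of GENCODE mouse release M21.

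The members and lists were chosen with earlier results of these data known. Lists of other pathway genes, targets and cell type markers were written from general knowledge, and 11 genes stand in more than 1 of them. All 45 pathway genes may be named. From each class of the other lists the 3 genes with the highest FPKM were named, and among those with at least 5 FPKM the 2 highest and 2 lowest log2 ratios, besides Smn1 and Mnx1 as checks. Some genes that this rule or a count would name are not reported here by name, but they remain in the counts and sums of their lists. Promoter windows were those of the 6 genes with the largest absolute log2 ratios, among genes that had a window, in the 5 classes with the largest absolute medians. Alternatives were adding 0.1 or 1 FPKM before the ratio, filtering at 5 FPKM or not at all, limits of 1.5-fold and 4-fold, scaling to the median gene, the upper quartile or Gusb, Pgk1 and Rpl13a, summing entries, using only entries that name 1 gene, and leaving out the status FAIL.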

Additional observations from a re-analysis of the deposited data

How the results depend on the processing

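No paired analysis was possible because the table gives 1 pooled value per genotype, and for the same reason no sample could be left out in turn. Over 386 recomputed log2 ratios of the 40 pathway genes, 383 moved by less than 1.5-fold. This count says little about stability, because only a pseudocount could move a ratio that far. The filters, the choice of entries and leaving out the status FAIL kept each ratio as it was. The scalings shifted all log2 ratios alike, by at most 0.29. The exceptions came with a pseudocount of 1 FPKM, which lowers the ratios of low genes by its construction: Lefty2 at 2.36, Nog at -1.69 and Bmpr1b at -1.58. None of the alternatives run could turn the sign of a gene past 2-fold, so the unchanged signs of the 22 genes that rose or fell are no test. Of these genes 5 (Acvr1, Smad1, Smad6, Acvr2a and Id2) came under 2-fold in at least 1 alternative. With limits of 1.5-fold, 8 of the 40 pathway genes were higher and 23 lower, against 12.7% and 35.4% of all genes. With limits of 4-fold, 5 were higher and 6 lower, against 1.80% and 8.88% of all genes. With no minimum 8 of 45 were higher and 16 lower, against 8.41% and 24.5% of all genes. Other pathway genes at least 2-fold higher numbered 5 with a pseudocount of 1 FPKM and 5 with a filter of 5 FPKM. Target genes at least 2-fold lower numbered 6 and 7 under these settings, and 1 was higher with the filter of 5 FPKM, where fewer genes were counted. Of all genes 4.28% were higher and 17.2% lower with the pseudocount of 1 FPKM, and 4.81% and 20.0% with the filter of 5 FPKM. Leaving out the status FAIL, which removes Tdgf1, Bmp1, Acvr1b, Tgfbr1 and Smad5, was applied to class sums after seeing the data. For Nodal co-receptors the log2 ratio of the sum became 0.27 (3.35 with Tdgf1), from Cfc1 alone, which is under 1 FPKM. For TGF-beta receptors it became -0.77 (-1.58 with Tgfbr1), from Tgfbr2 alone. It was -1.04 for activin and Nodal receptors (-0.75 with Acvr1b) and -0.996 for Smads of the BMP branch (-0.85 with Smad5). The class of Bmp1 gave no value. Depth per sample was not analysed here, and the counting error of low genes such as Lefty2 and Bmpr1b was not computed.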
